A study of Danio rerio with 8 samples.

Results

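Between 8 somites and 36 hours post fertilization (hpf), 7802 regions of the zebrafish genome became listed as open chromatin in both wild-type (WT) and tp63 -/- embryos. They were chosen by merging the ATAC-seq peaks of all 4 deposited lists into regions wherever peaks overlapped by at least 1 bp. A member had a peak in both 36 hpf lists and none in either 8-somite list, on chromosomes 1 to 25 and outside chromosome 4 beyond 30 Mb. They were 7802 of 133688 regions on these sequences, or 5.84%. Presence by stage therefore defined the members and is not a result.

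The groups were WT at 8 somites, tp63 -/- at 8 somites, WT at 36 hpf and tp63 -/- at 36 hpf, with 2 replicates each (8 libraries). The tp63 -/- embryos carried a few-base CRISPR/Cas9 deletion on both alleles, which cuts translation short and leaves no p63 protein. All embryos were of the AB/Tübingen background per the methods. Whole embryos were freed of chorion and yolk. At 36 hpf a library was made from several pooled embryos, whereas an 8-somite library was made from 1 embryo of a cross between tp63 +/- parents, with its genotype read afterwards. At 36 hpf the mutants lack pectoral fin buds. Stage and input therefore cannot be told apart. A peak list cannot show the deletion, so the genotypes were not checked here. The deposited lists held 84703 peaks (WT) and 76556 peaks (tp63 -/-) at 36 hpf, against 96625 and 79893 at 8 somites. Each list was built from both replicates. No value per replicate was analysed. The variation between embryos is therefore unknown for every difference given here, and no test between groups was made. Read depth is unknown from peak lists.

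In ATAC-seq, the transposase Tn5 cuts and tags DNA where it is not wrapped in nucleosomes or compacted. Open regions mark promoters and enhancers, the stretches of DNA where transcription factors bind to control genes. At 8 somites the ectoderm has been divided into neural tissue, surface ectoderm and the border between them, and at 36 hpf differentiated neurons, muscle, blood and a layered epidermis are present. p63, the product of tp63, is the transcription factor needed for stratified epidermis and for the fin and limb buds. A whole embryo mixes all cell types, and a region open in few cells cannot be told apart from one that is weakly open in many.

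Members were weak peaks. Every peak carried a fold enrichment, the authors' linear ratio of signal over background, and a −log10 p-value. The WT fold enrichment of the members had a median of 5.47, with quartiles of 4.75 and 6.39 and a range of 2.14 to 20.9. In tp63 -/- the median was 5.68, with quartiles of 4.91 and 6.57 and a range of 2.64 to 17.4. The distributions of both genotypes overlapped over nearly their whole length. In the 41041 regions present in all 4 lists, which were open at both stages, the medians at 36 hpf were 7.56 in WT and 7.72 in tp63 -/-. The median −log10 p of members was 16.3 in WT and 18.3 in tp63 -/-, against 30.4 and 34.1 in the regions of all 4 lists. Members were also narrower, with a median region width of 354 bp against 449 bp, and 344 bp in regions listed at 8 somites only. A region of all 4 lists joins peaks of more lists, which can widen it. Median peak widths at 36 hpf were 300 bp against 361 bp in WT and 319 bp against 385 bp in tp63 -/-. Where a region held several peaks of a list, the highest-ranked one was used. In 7670 members each list held a single peak.

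Peaks were ranked within each list by −log10 p, and each region was placed by the weaker of its WT and tp63 -/- ranks. Among the 6348 regions in the strongest decile at 36 hpf, 11 were members, or 0.173% (95% Wilson interval 0.0968 to 0.31). The share rose in every decile and reached 40.7% in the weakest (1539 of 3783, 39.1 to 42.3). In all, 1133 members (14.5%) lay above the median rank of both lists, compared with 69.4% of the regions in all 4 lists. The rule fixed part of this, because a weak region is more easily missing from a list. Intervals given here and below cover counting error only, and neighbouring regions are not independent.

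**Figure D1:**
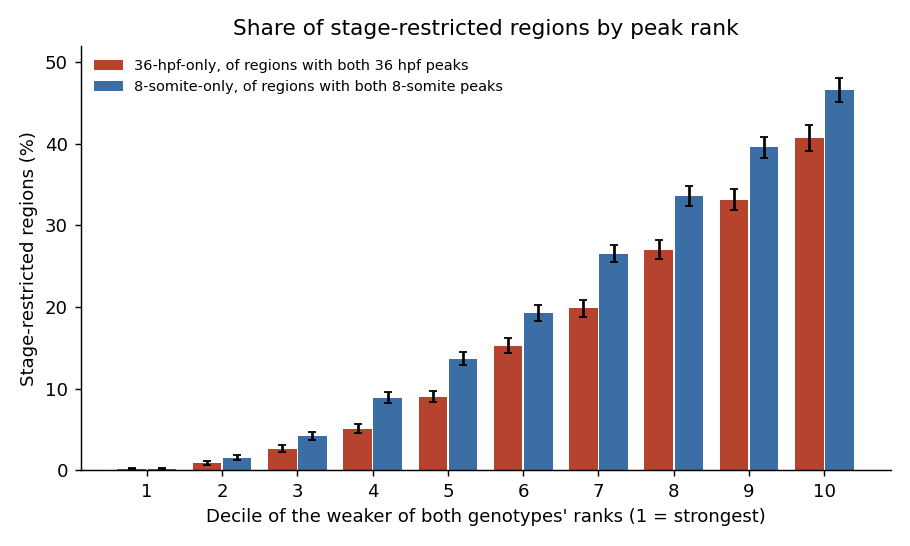
Share of stage-restricted regions (%) by decile of the weaker genotype rank, from strongest (1) to weakest (10). Red bars are 36-hpf-only regions among those with both 36 hpf peaks, blue bars are 8-somite-only regions among those with both 8-somite peaks, and error bars are 95% Wilson intervals. Both shares rise from under 0.2% to 40.7% and 46.6%.

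The same gradient was present at the other stage. Of the regions with a peak in both 8-somite lists, those listed at 8 somites only made up 0.194% of the strongest decile and 46.6% of the weakest. A preponderance of weak peaks was thus shared by both stage-restricted classes and was not particular to 36 hpf. The 8-somite-only class was the larger, with 10941 regions (8.18% of all).

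A few members were nonetheless among the strongest peaks at 36 hpf. The 10 members with the best weaker rank and no 8-somite peak within 1 kb all reached the maximum deposited value of reproducibility in both lists. Reproducibility was given as the irreproducible discovery rate (IDR), which compares peak ranks between replicates. Of these 10, 3 lay on chromosome 22. The fold enrichment was higher in WT in 5 of the 10 and higher in tp63 -/- in the other 5. By −log10 p the split was not even. WT was the higher by that measure only at chr2:31731865-31732485, chr22:30060481-30060879 and chr22:34685761-34686594. No gene is named for any region, since coordinates are those of GRCz10 (danRer10) and no gene annotation of that assembly was used.

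The first of them, chr2:31731865-31732485, had a fold enrichment of 15.3 in WT and 17.4 in tp63 -/-. It ranked 5 of 84703 peaks in WT and 83 of 76556 in tp63 -/-, although the nearest 8-somite peak was 3.57 kb away. By −log10 p it was thus one of the highest-ranked peaks at 36 hpf in both genotypes without having been listed at 8 somites.

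The next region, chr22:30060481-30060879, had the highest WT fold enrichment of all members, 20.9, against 16.5 in tp63 -/-. Its nearest 8-somite peak was 19.1 kb away and its nearest region of all 4 lists 36.9 kb away. The region chr22:34685761-34686594 had 16.3 in WT and 15.9 in tp63 -/-, and no 8-somite peak within 29.5 kb. These 2 sites of chromosome 22 stood further from an 8-somite peak than the third, chr22:18199611-18200264, at 11 kb.

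The region chr7:4126412-4126819 had 10.5 in WT and 14.7 in tp63 -/-, a ratio of 1.41 in favour of the mutant, the furthest apart of the 10. The region chr12:47714883-47715116 had 13.5 in WT and 14.4 in tp63 -/-, over 234 bp. The region chr19:12637708-12638558 was the widest, with 851 bp, and had 11.7 in WT and 12.3 in tp63 -/-. All 3 were higher in the mutant list, the last by a factor of 1.04.

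The region chr22:18199611-18200264 had 11.7 in WT and 11.5 in tp63 -/-. The region chr20:47408311-47408653 had 11.6 and 11.5, and chr16:54586956-54587407 had 9.16 and 8.12. In these 3 the WT value was the higher, by at most 1.13 times. The last, chr11:8475281-8475720, had 9.67 in WT and 10.9 in tp63 -/-. A high rank in both lists was how the 10 were selected, so their strength in both genotypes is a description.

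The genotypes were then compared over all members. Presence in both lists was part of the rule, so regions lost in one genotype are outside this comparison. The median ratio of WT to tp63 -/- fold enrichment was 0.973 (95% interval of the median, 0.969 to 0.977), or −0.04 on the log2 scale, with an SD across members of 0.26. The WT value was the higher in 3410 members (43.7%). Over all 58042 regions with a peak in both 36 hpf lists, the median ratio was 0.986 and the SD 0.23, and WT was higher in 46.2%. The median log2 ratio of the members was below 0 on 24 of the 25 chromosomes, the exception being chromosome 5 at 0.01. This shift was small against the spread among regions. Scaling both lists to equal medians over the regions of all 4 lists moved the median ratio to 0.993.

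**Figure D2:**
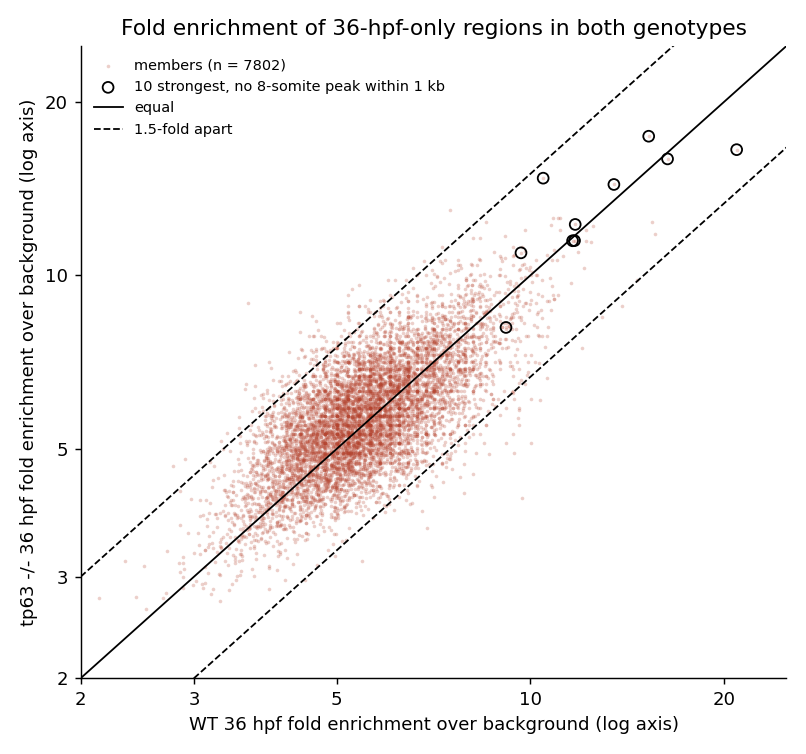
Fold enrichment over background of the 7802 members in WT (x axis) and tp63 -/- (y axis) at 36 hpf, both on log axes. Each red point is a region, open circles are the 10 strongest members with no 8-somite peak within 1 kb, the solid line marks equal values and dashed lines 1.5-fold differences. Nearly all points lie between the dashed lines, with 71 beyond the line towards WT and 130 beyond the line towards tp63 -/-.

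Few members differed by 1.5 times or more. In 71 members (0.91%, 0.722 to 1.15) the WT value was at least 1.5 times the mutant value, beside 0.503% of all regions with both 36 hpf peaks. In 130 members (1.67%, 1.41 to 1.97) the mutant value was at least 1.5 times the WT value, beside 1.39% of all such regions. The bands of rank used next were set by the weaker genotype rank, so a region that was lower in one genotype was moved to a worse band by that difference itself, and the values are a description. Among members beyond the 75th percentile of rank, 60 of 3900 (1.54%) passed towards WT and 103 (2.64%) towards the mutant. Over all regions with both 36 hpf peaks in that band, the shares were 1.64% and 4.11%. Among the 128 members within the 25th percentile none passed in either direction, which allows a share of up to 2.91% each. Over all 16280 regions in that band the shares were 0.0369% and 0.0676%. The SD of the log2 ratio of members grew from 0.17 to 0.29 between these bands. With scaled lists the shares of members were 1.19% towards WT and 1.27% towards the mutant, so their lean towards the mutant was nearly gone. In the changed set of 6576 regions at an IDR of at most 0.01 they were 0.274% and 0.593%. Neither setting was computed over all regions with both 36 hpf peaks. Whether these changes are particular to members is therefore unknown.

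Members and regions of all 4 lists were also set side by side within the weakest band. Beyond the 75th percentile, 2.64% of members (2.18 to 3.19) were at least 1.5 times higher in the mutant, compared with 5.68% (5.03 to 6.4) of the regions of all 4 lists. Towards WT the shares were 1.54% (1.2 to 1.98) and 1.82% (1.47 to 2.27). The intervals were apart towards the mutant and overlapped towards WT. The higher share of members towards WT in the pooled comparison was not present within this band. Between the 25th and 50th percentiles, 2 of 1005 members (0.199%) passed towards WT, as did 19 of 12717 regions of all 4 lists (0.149%). Towards the mutant the shares were 0.299% and 0.629%. Between the 50th and 75th percentiles, 0.325% of members and 0.558% of regions of all 4 lists passed towards WT. Towards the mutant the shares in that band were 0.867% and 2.07%.

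Among the 3901 members at or above the median of the weaker rank, 11 were at least 1.5 times higher in WT and 27 in the mutant. Over all regions with both 36 hpf peaks, 0.163% passed towards WT and 0.615% towards the mutant between the 25th and 50th percentiles. The member shares there were 0.199% and 0.299%. In the next band, 0.517% and 1.59% of all such regions passed, beside 0.325% and 0.867% of members. Of these shares, that of members was the higher only towards WT in the former band. Among the 3901 members, the highest ratio to WT was at chr6:43018315-43019000, with 10.4 in WT and 6.07 in tp63 -/- (1.7 times). It was followed by chr8:15732308-15732737, with 9.59 and 5.83 (1.64 times). The region chr7:19348116-19348362 had 10 and 6.09, again 1.64 times. All 3 sites ranked at 20329 or better in the WT list and at 53117 or worse in the mutant list.

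In the opposite direction, chr16:22217895-22218603 had 7.5 in WT and 13 in tp63 -/- (1.73 times). The region chr24:20974969-20975229 had 6.02 and 9.8 (1.63 times). The region chr15:9443334-9443565 had 5.64 and 9.08 (1.61 times) and lay 36 bp from a region present in all 4 lists. These extremes were of like size in both directions, and without replicate values none can be called a difference between genotypes.

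Peak position and width were close in both genotypes. The rule joined peaks by overlap, which limits how far apart their summits can lie, so these values are a description. The WT and tp63 -/- summits of a member were 17 bp apart at the median, and 80.4% were within 50 bp of each other. In the regions of all 4 lists the median distance was 13 bp at 36 hpf, and in the 8-somite-only regions it was 20 bp. The median peak width of members was 300 bp in WT and 319 bp in tp63 -/-, and the mutant peak was the wider in 58.5% of members. The regions of all 4 lists showed the same at 36 hpf, with 61.5% wider in the mutant, and the opposite at 8 somites, with 36.5%. Across members, the Spearman correlation of WT and tp63 -/- fold enrichment was 0.65 (n = 7802 regions of the same 2 lists), compared with 0.86 in the regions of all 4 lists, which span a wider range of values.

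Members were next placed along the chromosomes. Their share of all regions was higher in the interior than near the chromosome ends. Within 2 Mb of the nearer end, 5.01% of regions were members (678 of 13541, 4.65 to 5.39). The share was 4.8% from 2 to 5 Mb, 5.51% from 5 to 10 Mb and 5.88% from 10 to 20 Mb. Beyond 20 Mb it was 6.77% (2080 of 30732, 6.49 to 7.05). Chromosome 4 was left out here, and the last listed peak stood in for the end of each chromosome.

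**Figure D3:**
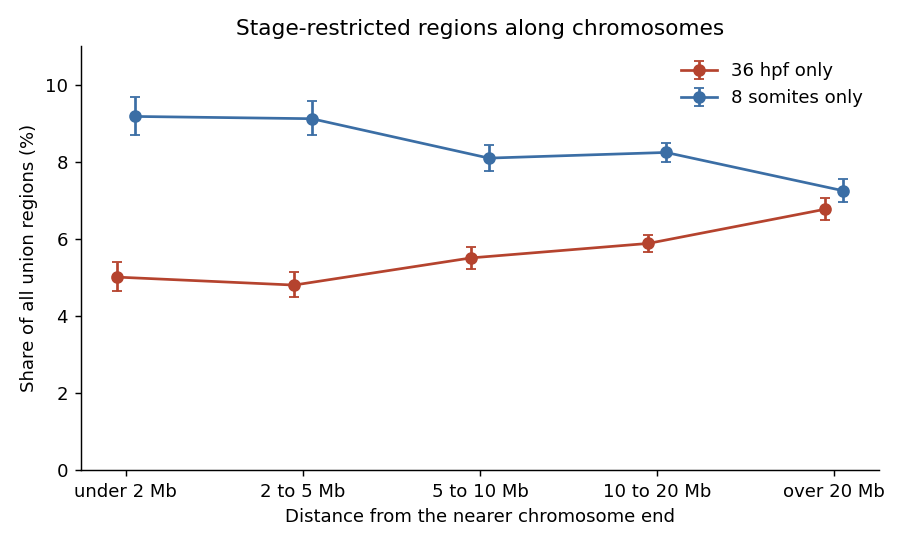
Share of all union regions (%) that were 36-hpf-only (red) or 8-somite-only (blue), by distance from the nearer chromosome end, over 24 chromosomes without chromosome 4. Points are pooled shares and bars 95% Wilson intervals. The red share goes from 5.01% near the ends to 6.77% in the interior while the blue share goes from 9.17% to 7.25%.

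Regions open at 8 somites only followed the opposite course, from 9.17% within 2 Mb to 7.25% beyond 20 Mb. Comparing the interior beyond 20 Mb with the outer 5 Mb, the member share was 1.87 percentage points higher inside (95% Newcombe interval 1.5 to 2.25) and the 8-somite-only share 1.89 points lower (interval of the difference, −2.33 to −1.46). The difference for members was in the same direction on 21 of the 22 chromosomes with regions in both zones, and for 8-somite-only regions the share was higher inside on 0 of the 22. The regions of all 4 lists made up 31.0% inside and 32.3% outside. The difference between interior and ends was therefore opposite in sign for the 2 stage-restricted classes.

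The gradient was also seen on either side of the median of the weaker rank. Strength was not matched within these sets. Among regions with both 36 hpf peaks and a weaker rank above the median, members were 2.81% within 2 Mb (2.31 to 3.42) and 3.99% beyond 20 Mb (3.57 to 4.45). Below the median rank they were 22.6% (21.0 to 24.2) and 27.7% (26.6 to 28.8). The intervals of the outermost and innermost zones did not overlap in either set. The base composition, gene density and mappability of these zones were not analysed here.

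Chromosomes differed in their share of members. Chromosome 22 had the highest share, 8.26% of its regions (309 of 3741, 7.42 to 9.19), which was 1.42 times the share over all regions. The first 30 Mb of chromosome 4 followed with 7.65% (234 of 3059, 6.76 to 8.65) and chromosome 12 with 7.06% (6.35 to 7.83). Chromosome 15 had the lowest share, 4.68% (254 of 5426, 4.15 to 5.28). The intervals of chromosomes 22 and 4 overlapped. The interval lay above the overall 5.84% on 5 chromosomes and below it on 3.

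**Figure D4:**
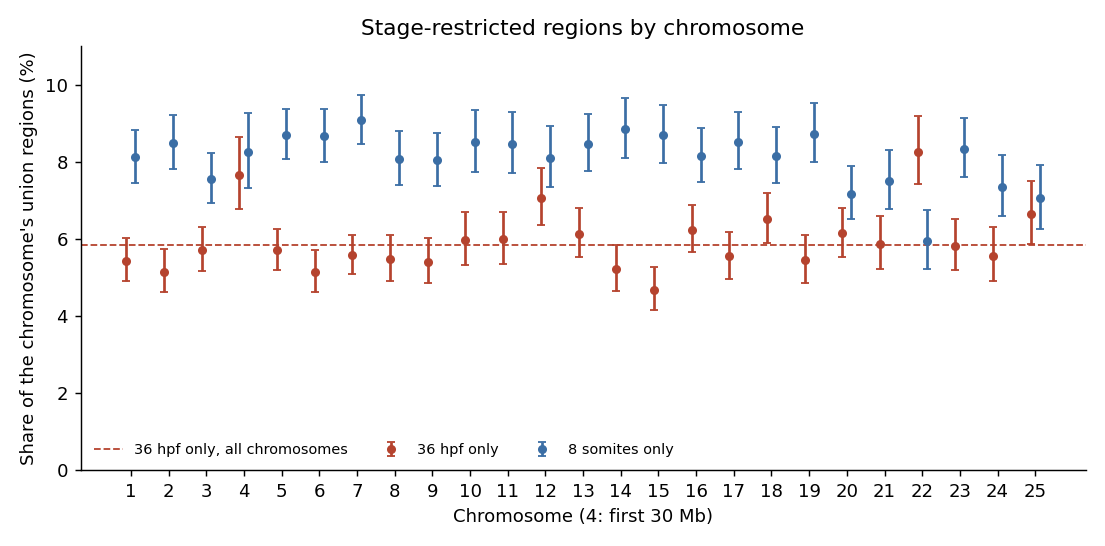
Share of each chromosome's union regions (%) that were 36-hpf-only (red) or 8-somite-only (blue), with 95% Wilson intervals. The dashed line is the 36-hpf-only share over all chromosomes, 5.84%. Chromosome 22 is the one where the red point (8.26%) lies above the blue (5.93%).

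Chromosome 22 was also the one with the lowest share of 8-somite-only regions, 5.93% (222 of 3741, 5.22 to 6.74), and the only one on which members outnumbered them. On the other 24 chromosomes there were between 53.9 and 94.2 members per 100 8-somite-only regions, compared with 139 on chromosome 22. Its share of regions in all 4 lists, 32.7%, was within the range of the other chromosomes. Across the 25 chromosomes the Spearman correlation of member share and 8-somite-only share was −0.49 (n = 25), where both shares have the same denominator.

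The spacing of the members was measured next. The median distance between the midpoints of a member and the nearest other member was 42.1 kb, with quartiles of 15.9 and 101 kb. Another member lay within 10 kb of 16.6% of members (1294 of 7802, 15.8 to 17.4) and within 50 kb of 55.3%. For the 10941 8-somite-only regions these shares were 18.5% and 63%, and for the 41041 regions of all 4 lists 56.7% and 95%. Shares of this kind rise with the number of regions in a class. In 710 pairs of successive members within 10 kb, the log2 ratios of WT to tp63 -/- correlated at r = 0.09, so neighbours had little in common in their genotype ratio.

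Members did lie closer to constitutively listed chromatin than the 8-somite-only regions did. A region of all 4 lists was found within 1 kb of 852 members (10.9%, 10.2 to 11.6) and of 615 8-somite-only regions (5.62%, 5.2 to 6.07). The difference was 5.3 percentage points (4.49 to 6.12), and it had the same direction on all 25 chromosomes. Within 5 kb the shares were 35.4% and 27.0%. The median gap to the nearest such region was 8.51 kb for members and 11 kb for 8-somite-only regions.

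The same direction was seen on either side of the median rank, though rank was not matched within these sets. Among members above the median rank of both lists, 9.27% (7.71 to 11.1) had a region of all 4 lists within 1 kb, compared with 5.29% (4.37 to 6.39) of the 8-somite-only regions above the median rank of theirs. Among the others of each class the shares were 11.2% (10.5 to 12) and 5.69% (5.23 to 6.19). The 852 members next to such a region were smaller, with a median width of 268 bp against 363 bp in the other 6950. Their median fold enrichment was 4.72 in WT and 4.86 in tp63 -/-, against 5.58 and 5.75. By rank they were close to the others, with a median weaker-rank percentile of 75.7 against 74.8. They were thus narrower and lower in fold enrichment in both genotypes, at a similar rank.

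Windows of 100 kb on a fixed grid were then counted, and 5298 of 12835 windows with any region held at least 1 member. The highest counts were 13 members in 1 window, 8 in another and 7 in 5 windows. By comparison, no window held more than 7 of the more numerous 8-somite-only regions, although 20 windows held at least 6 of them, against 15 for members. Of those 15 windows, 3 were on chromosome 22. Over windows of 1 Mb the mean was 5.98 members, and the highest counts were 26 and 22 on chromosome 22 and 20 on chromosome 23. These windows held 131, 123 and 133 regions of any kind, so counts of members were not corrected for the density of regions.

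The densest window, chr22:18200001-18300000, held 28 regions. Of these, 13 were members, 8 were in all 4 lists and 0 were 8-somite-only. The members spanned 67.5 kb, and 11 of the 13 had no 8-somite peak within 1 kb. Their fold enrichment ran from 3.72 to 6.0 in WT, with a median of 4.07, and from 3.01 to 6.18 in tp63 -/-, with a median of 4.03. Both medians were below those of all members.

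The strongest of the 13, chr22:18223483-18223885, had 6.0 in WT and 6.05 in tp63 -/-. The widest, chr22:18253277-18254065 (789 bp), had 4.83 in each genotype. WT was the higher in 7 and the mutant in 6, by at most 1.25 times. Their presence in both genotypes was fixed by the rule. One of the 10 strongest members, chr22:18199611-18200264, lay 18.4 kb before the first of them. It straddled the edge of the window and was not among the 13 counted.

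The second window, chr15:14300001-14400000, held 20 regions, on the chromosome with the lowest share. Of these, 8 were members, within 13 kb. No 8-somite peak lay within 6.97 kb of any of the 8 members. Fold enrichment was 4.12 to 9.54 in WT and 4.02 to 9.2 in tp63 -/-. The strongest, chr15:14313807-14314052, had 9.54 in WT and 9.2 in tp63 -/-. The mutant fold enrichment was the higher in 6 of the 8, by at most 1.27 times. By −log10 p the direction was the opposite. The mutant −log10 p was the higher only at chr15:14311971-14312140, with 34.2 in WT and 34.4 in tp63 -/-. At chr15:14313807-14314052 the −log10 p was 50.2 in WT and 36.3 in tp63 -/-. The group on chromosome 15 was tighter and stronger than the one on chromosome 22.

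**Figure D5:**
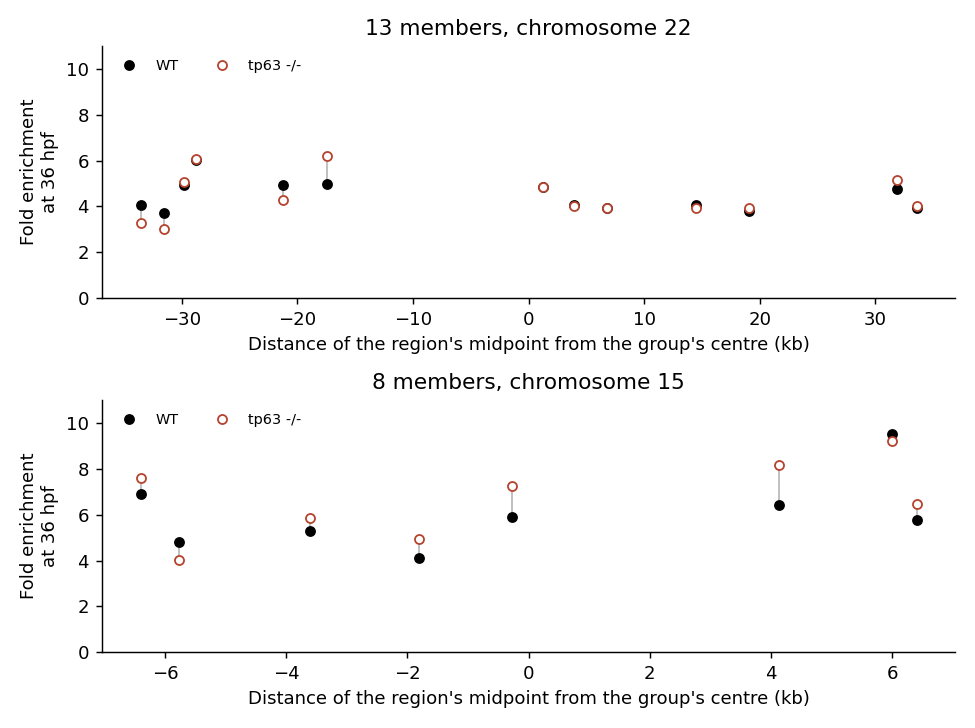
Fold enrichment at 36 hpf of the members in the 2 densest windows of 100 kb, by distance (kb) of each member's midpoint from the centre of its group. Black points are WT, open points tp63 -/-, and grey lines join both values of a region. The 13 members on chromosome 22 run from 3.01 to 6.18 and the 8 on chromosome 15 from 4.02 to 9.54, with both genotypes at most 1.27 times apart.

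The 5 windows with 7 members each were on chromosomes 2, 4 and 22 and held 13 to 31 regions of any kind. Those on chromosome 2 were chr2:19100001-19200000 and chr2:33300001-33400000, and in the latter the members spanned 22.7 kb. Those on chromosome 22 were chr22:10900001-11000000 and chr22:11100001-11200000, and the one on chromosome 4 was chr4:5600001-5700000. Their median WT fold enrichments were 4.6 to 6.18 and their median mutant ones 4.77 to 6.39.

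The edges of the rule were examined last, as a description. In the deposited values, no listed peak had a global IDR above 0.1, and 89 members sat at that limit in at least 1 list. One was chr10:5848796-5849023, with fold enrichments of 3.33 in WT and 4.5 in tp63 -/-. At the other end, 2324 members (29.8%) had an IDR of at most 0.01 in both lists. Just outside the rule were 9199 regions with both 36 hpf peaks and a peak in exactly 1 of the 8-somite lists, more than the members themselves. Their median 36 hpf fold enrichments, 5.91 in WT and 6.09 in tp63 -/-, were close to those of members. Of these regions, 6388 had the WT 8-somite peak and 2811 the mutant one. The WT 8-somite list was also the larger (96625 against 79893 peaks). Other regions with a peak in exactly 1 of the 8-somite lists leaned the same way. With no 36 hpf peak, 18041 had the WT 8-somite peak and 8649 the mutant one. With only the WT 36 hpf peak the counts were 3754 and 1733, and with only the mutant 36 hpf peak 2588 and 1175. The split was thus not particular to regions just outside the rule. The one with the weakest 8-somite peak, chr16:30296384-30297160, had an 8-somite fold enrichment of 3.67 in tp63 -/-, beside 7.16 in WT and 6.88 in tp63 -/- at 36 hpf.

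Distance to 8-somite chromatin formed the other edge. The nearest 8-somite peak was 3.42 kb from a member at the median, and 1526 members (19.6%, 18.7 to 20.5) had one within 1 kb. The closest gap was 7 bp. One such member was chr15:21020348-21020521, which also had the lowest WT fold enrichment, 2.14, beside 2.76 in tp63 -/-. Its −log10 p was 2.95 in WT, the lowest of all members. Its reproducibility was nevertheless at the maximum deposited value in both lists (−log10 IDR of 5, the lowest IDR). At the other extreme a member lay 139.6 kb from any 8-somite peak.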

How the data were processed

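The 8 libraries (2 replicates in each of 4 groups) were represented by 4 deposited ATAC-seq peak lists, with both replicates of a group combined in its list. Per the methods, the authors aligned reads to GRCz10 (danRer10), placed the Tn5 cut sites and kept peaks by the IDR framework. In the deposited values the global IDR was at most 0.1. The submitters' processing notes name Bowtie2 and SAMtools, and the peak caller for these lists is not given in the sources used here. Illumina HiSeq and NextSeq instruments were used, without stating which library ran on which. The deposited columns were the fold enrichment (a linear ratio over background), the −log10 p-value and q-value, the −log10 IDR and a score, and the authors computed all of them. The score, the q-value and the local IDR were not used further.

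Peaks were ranked by −log10 p, with ties broken by fold enrichment, and merged at an overlap of at least 1 bp. Shares have 95% Wilson intervals, differences Newcombe intervals, and medians order-statistic intervals. The members, the lists and the named regions were chosen with earlier results of these data known. Named regions were the 10 members with the best weaker rank and no 8-somite peak within 1 kb, the 3 highest and the 3 lowest genotype ratios at or above the median weaker rank, the densest windows of 100 kb, and regions at the edges of the rule. The third densest window was tied between 5, and all are given. The extremes within a group of members were chosen after their values were seen. Alternatives were an overlap of 50%, an IDR of 0.05 or 0.01, equal list sizes (76556), no 8-somite peak within 1 kb, all sequences, and scaling of the lists. Distances to genes and motifs were planned but not run, since no genome or annotation of GRCz10 was used, and no sequence is shown. Python 3.11.15, numpy 2.4.6, pandas 2.3.3, scipy 1.17.1 and matplotlib 3.10.9 were used. Merging was tested against bedtools 2.31.1 on simulated data and on the deposited peaks, with identical regions.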

Additional observations from a re-analysis of the deposited data

Results flagged for a closer look

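Some regions of the same pattern lay outside the comparisons. On the sequences that the rule leaves out (unplaced and mitochondrial sequences and chromosome 4 from 30 Mb), 203 of 4153 regions (4.89%, 95% Wilson interval 4.27 to 5.59) had peaks in both 36 hpf lists and in neither 8-somite list. On chromosome 4 from 30 Mb these were 48 of 1149 regions (4.18%, 3.17 to 5.5). Both shares were below the 5.84% over the sequences that the rule keeps. These regions are in data that the report does not use.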

How the results depend on the processing

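The number of members stayed within 1.5 times of 7802 under every alternative (6276 to 8943). A similar count does not mean that the same regions were kept. At an IDR of 0.01, 6576 regions met the rule, but only 2324 of the 7802 members reached that limit in both lists. Most of the 6576 were therefore not among the 7802. Equal list sizes shortened the 8-somite lists too, which can add members. The median WT to mutant ratio remained below 1 under every alternative. It was 0.99 with equal list sizes and 0.993 with scaled fold enrichments. The share of members at least 1.5 times higher in WT was 0.478% at an IDR of 0.05 and 0.274% at 0.01. Those shares are of the changed sets, so they do not describe the more reproducible of the 7802 members. With scaling the share towards WT was 1.19%. The share at least 1.5 times higher in the mutant was 0.593% at an IDR of 0.01, 0.984% with equal list sizes and 1.27% with scaling. The order of both directions thus came close to equal under the last pair of settings (0.939% and 0.984% with equal list sizes, 1.19% and 1.27% with scaling). The share of members with another within 10 kb was 19.1% with equal list sizes, 14.4% with no 8-somite peak within 1 kb and 17.7% at an overlap of 50%. It was 55.3% within 50 kb by construction. Where not stated, the cause of these moves was not tested.

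Scaling was planned for the median ratio, and its use for both 1.5-fold shares was added after seeing the data. The following results and their alternatives were also added then. The member share beyond 20 Mb from the ends over that within 5 Mb stayed between 1.33 and 1.41. The share on chromosome 22 over that of all regions stayed between 1.35 and 1.42. The difference in nearness to regions of all 4 lists stayed between 4.66 and 6.12 percentage points. This nearness result was not computed for the setting with no 8-somite peak within 1 kb, which itself removes nearly all such members. Of 51 alternative values, 39 stayed within the interval or factor set for them and 12 moved. A change of direction was defined only for the median ratio and for the zone, chromosome 22 and nearness results. None of these changed direction. No paired analysis was possible because each group had 1 list made from both replicates, and for the same reason no replicate could be left out. Distances to transcription starts and motif shares were not run. Read depth per library is unknown, so a region missing at 8 somites may lie just under the threshold of its list.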
